A study of Ailuropoda melanoleuca with 25 samples.

Results

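Established induced pluripotent stem cells of the giant panda (Ailuropoda melanoleuca), called GPiPSC, were compared with the primary fibroblasts (PF) from which the study set out to make them. The 9 libraries were chosen by their titles from the 25 of the series: LB GPiPSC (3 libraries), XR GPiPSC (2), LB PF (2) and XR PF (2). The labels do not say what LB and XR stand for, whether they are animals or lines, or which passage, sex, age or culture medium each library had. The GPiPSC were made with non-integrating episomal vectors, per the series' design text; it gives neither the factors carried nor whether a line is 1 clone. The labels give every library the source "primary fibroblast cells", GPiPSC included, so the group rests on the title and treatment labels. LB and XR libraries were compared together, with the LB or XR prefix as a block, so each change averages the change in LB and the change in XR. Whether the replicates came from separate cultures is not stated, so the p-values cover the spread of these libraries and no more, and that spread may be technical. In bulk RNA, fewer cells of a type and less RNA per cell cannot be told apart.

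Fibroblasts are connective tissue cells that make and remodel extracellular matrix and spend much of their RNA on a few secreted and structural proteins. Reprogramming to pluripotency silences that programme and starts a self-sustaining network of transcription factors, under which cells divide without limit and can form all tissues of the body. Episomal vectors carry the reprogramming factors without inserting into the genome and are lost as cells divide.

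The deposited tables list 22924 gene models by assembly identifiers, without gene names. None of the 72 marker symbols listed for pluripotent, fibroblast, epithelial, endothelial and blood cells (30, 30, 7, 3 and 2 symbols) matched a model, so the labelled cell types could not be checked against markers and no pathway was described. What follows describes how many models differed, how strongly, at which levels and on which scaffolds, with 2 identifiers per direction.

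Total estimated counts ran from 11605859 to 13107940 in GPiPSC and from 8627983 to 14890260 in PF. In log2 CPM (the count scaled to TMM-corrected library size) across the models tested, pairs of GPiPSC libraries correlated at 0.940 to 0.993, pairs of PF libraries at 0.886 to 0.954, and GPiPSC with PF libraries at 0.611 to 0.656. LB GPiPSC replicate 3 was closer to XR GPiPSC than to its own group: it correlated at 0.978 with both XR GPiPSC libraries and at 0.955 and 0.956 with LB GPiPSC replicates 1 and 2. The replicates of PF were less alike than those of GPiPSC, with a median difference between the replicates of a group of 0.638 and 0.630 on the log2 CPM scale in LB and XR PF, against 0.165 in XR GPiPSC and 0.279 to 0.351 in LB GPiPSC. No pair of replicates differed by counting error alone. The chi-square of their counts, per degree of freedom, was 5.28 or more in each of the 6 pairs and reached 114 in XR PF. Whether a pair came from the same RNA sample cannot be told from these values.

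The first question was how much of the transcriptome differed between the established GPiPSC and the fibroblasts. Of 15996 models with enough counts to test, 9044 (56.5%) were called at an adjusted p under 0.05 by edgeR's quasi-likelihood test, 4519 higher in GPiPSC and 4525 lower, or 28.3% of the models tested in each direction. The typical change was large. The median log2 fold change was 2.03 among the models called higher, or 4.09-fold, and -2.13 among those called lower, or 4.37-fold, against 0.01 over all models tested. Over 2-fold changes were found in 3832 of the models called higher (24% of those tested) and 3885 of those called lower (24.3%), over 8-fold changes in 1541 (9.63%) and 1574 (9.84%), over 32-fold changes in 835 (5.22%) and 799 (4.99%), and over 128-fold changes in 385 (2.41%) and 423 (2.64%). The 5 GPiPSC and 4 PF libraries did not overlap in 3897 of the 4519 models called higher and in 3535 of the 4525 called lower, where 25.5% and 22.7% of all models tested did not overlap in these directions.

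The near-even split of the calls depends on the scale. With limma-trend on TMM-scaled log2 CPM, a setting added after seeing the data, 52.4% of 9251 calls were higher. With limma-trend on log2(TPM + 1), where TPM is the transcript abundance scaled for length and library total, 63% of 9317 calls were higher, and the median over all models tested was 0.30. The TMM factors, by which edgeR corrects for library composition, ran from 1.13 to 1.22 in GPiPSC and from 0.69 to 0.91 in PF, and TPM values carry no such correction. Which share of the models rose is therefore known only relative to one of these scales, and the fold changes here are relative to TMM.

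**Figure D1:**
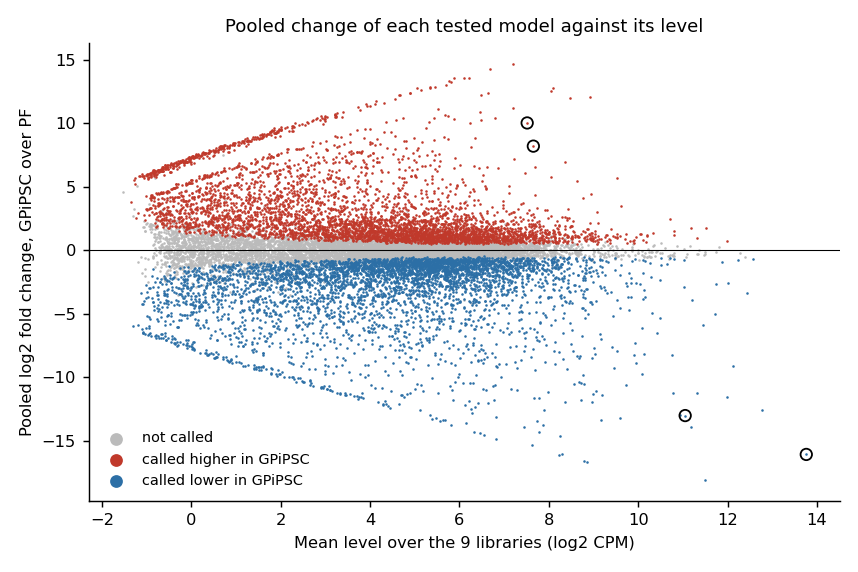
Each point is 1 of the 15996 gene models tested. The horizontal axis gives its mean level over the 9 libraries (log2 CPM) and the vertical axis its pooled log2 fold change, GPiPSC over PF. Red points were called higher in GPiPSC (4519), blue points lower (4525), grey points were not called, and circles mark the 4 models named in the text. The straight outer edges hold models with few or 0 counts on 1 side, whose fitted fold depends on the prior count.

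For most models without a call, a change of over 2-fold was not excluded by the interval. Of the 6952 models that were not called, 2457 had a 95% confidence interval of the log2 fold change that lay wholly within 2-fold in either direction, and 4495 had a wider one. With 27 models that were called although their change was small, 2484 models (15.5% of those tested) had intervals that exclude a 2-fold difference. These were abundant models, with a median level of 5.50 log2 CPM against 4.28 over all models tested.

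Some models were detected well on 1 side and hardly on the other. In TPM, 138 models stood at 10 or more in all 5 GPiPSC libraries and under 1 in all 4 PF libraries, and 158 models did the reverse. The 138 GPiPSC models had a median of 33.2 TPM in GPiPSC and 0.0573 TPM in PF, and summed to 6736, 6641 and 8286 TPM in LB GPiPSC and 7099 and 7171 TPM in XR GPiPSC, against 20.7 and 10.8 TPM in LB PF and 22.1 and 15.4 TPM in XR PF. The 158 fibroblast models had a median of 0.0966 TPM in GPiPSC and 59.6 TPM in PF, and summed to 26.9, 26.5 and 23.1 TPM in LB GPiPSC and 29.7 and 26.5 TPM in XR GPiPSC, against 28751 and 31201 TPM in LB PF and 39743 and 33347 TPM in XR PF. The group lost thus held a larger part of the fibroblast's RNA than the group gained held of the GPiPSC's. At a lower threshold the order of the numbers turned round. At 1 TPM or more in all GPiPSC and under 0.1 TPM in all PF libraries stood 285 models (1.24% of all models), and 182 (0.794%) did the reverse. The low level had to hold in 4 PF libraries for the 285, the smallest library among them, and in 5 GPiPSC libraries for the 182. The numbers were therefore not counted on equal terms. The models of all these groups were chosen by their levels, and the values describe them without a test.

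No counts at all were seen on 1 whole side for 376 of the models called higher (0 in all 4 PF libraries) and for 180 of those called lower (0 in all 5 GPiPSC libraries). For these a fold is only a lower bound. With 3 counts over the whole side as the floor (0.0740 CPM in PF and 0.0416 CPM in GPiPSC), the median bound was at least 26.5-fold higher and at least 131-fold lower. The floor is higher in PF, so 0 counts over the whole side are more easily met there. The 376 and the 180 models were therefore not counted on equal terms. Set at their bounds, these models left the medians of the calls at 2.03 and -2.13. They left 1524 models called higher and over 8-fold changed in place of 1541, 1574 called lower as before, and 628 over 32-fold higher in place of 835, with 771 over 32-fold lower in place of 799.

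In each direction 2 models are named, those whose change was largest in whichever of LB and XR changed less, among the models that met the level rule given with the processing. Their values chose them and are given as a description. The model evm.model.HIC_ASM_6.151 stood at 223, 467 and 341 CPM in LB GPiPSC and at 317 and 294 CPM in XR GPiPSC, against 0.269 and 0.682 CPM in LB PF and 0.340 and 0 CPM in XR PF. All 5 GPiPSC libraries were far above every PF library, where the model had 3, 5, 4 and 0 counts. Its pooled log2 fold change was 10.02 ± 0.56 (SE), with an adjusted p of 1.4e-07 by edgeR. The model evm.model.HIC_ASM_8.1452 stood at 384, 329 and 400 CPM in LB GPiPSC and at 360 and 332 CPM in XR GPiPSC, against 1.70 and 0.955 CPM in LB PF and 1.61 and 0.487 CPM in XR PF. Its GPiPSC libraries lay close together, and its pooled log2 fold change was 8.19 ± 0.39 (SE; adjusted p = 5.45e-08, edgeR). At a coding length of 8985 bases, against 1080 bases for the other, it was the lower of the pair per length, at 20.5 to 28.1 TPM against 155 to 306 TPM in GPiPSC.

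Among the models that fell, evm.model.HIC_ASM_13.784 was the most abundant single model in 3 of the 4 PF libraries and nearly absent from GPiPSC. It stood at 1.07, 0.205 and 0.347 CPM in LB GPiPSC and at 0.0698 and 0.135 CPM in XR GPiPSC, against 22666 and 6580 CPM in LB PF and 40469 and 55325 CPM in XR PF. The PF libraries differed among themselves by over 8-fold, and all lay far above every GPiPSC library. Its pooled log2 fold change was -16.08 ± 0.96 (SE; adjusted p = 2.33e-07, edgeR). It had 15, 3, 5, 1 and 2 counts in the GPiPSC libraries, so the size of the fold rests on few reads. The fitted log2 fold change of this model was -14.7 in LB and -18.69 in XR. The model evm.model.HIC_ASM_1.498 was steadier between fibroblast libraries, at 0.717, 0.205 and 0.417 CPM in LB GPiPSC and 0.907 and 0.474 CPM in XR GPiPSC, against 4024 and 3423 CPM in LB PF and 5978 and 5714 CPM in XR PF. Its log2 fold change was -13.02 ± 0.39 (SE; adjusted p = 6.88e-09, edgeR). For none of the 4 models did the LB and XR changes pass the test of their difference (adjusted p = 0.644, 0.88, 0.181 and 1), and without LB GPiPSC replicate 3 the log2 fold changes were 10.04, 8.18, -16.12 and -13.00. The tables do not show whether a near-identical copy elsewhere in the assembly shares reads with any of them.

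**Figure D2:**
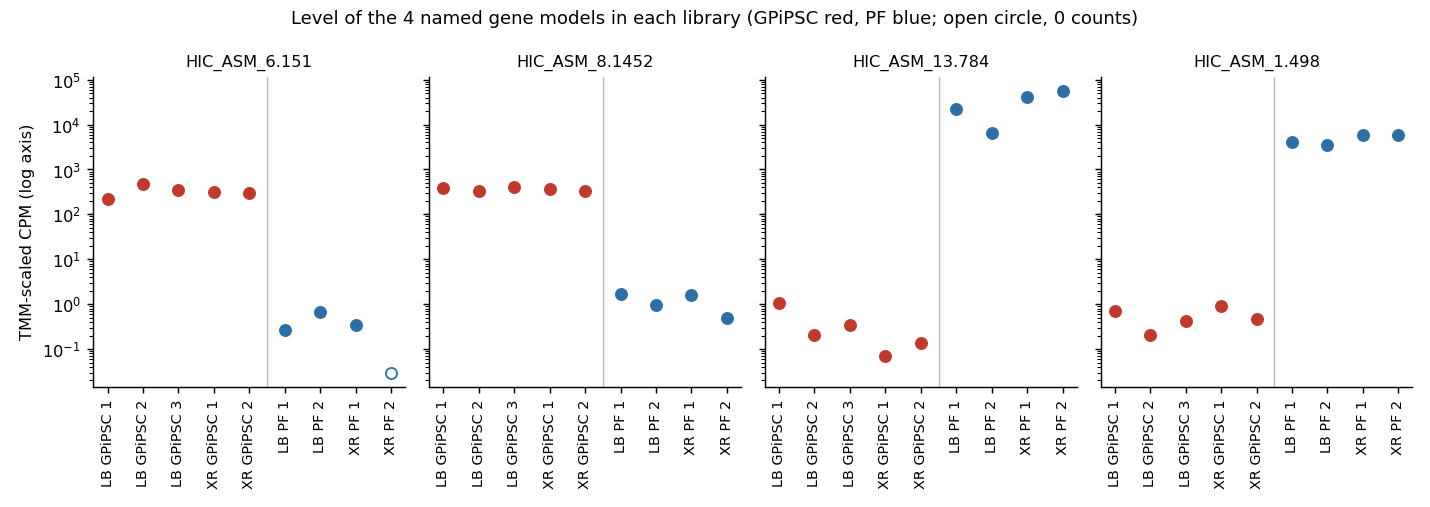
TMM-scaled CPM (log axis) of the 4 named models in each of the 5 GPiPSC libraries (red, left) and the 4 PF libraries (blue, right). The open circle marks 0 counts, drawn at the foot of the axis. In all 4 panels the sides are apart, with GPiPSC at 223 to 467 and 329 to 400 CPM in the first panels and at 1.07 CPM or less in the others.

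The RNA of GPiPSC was spread over more models than that of fibroblasts, when measured in counts. The 100 most abundant models of each library held 17.7%, 19.2% and 18.2% of its counts in LB GPiPSC and 21.0% and 21.3% in XR GPiPSC, against 26.2% and 26.8% in LB PF, with 29.0% and 31.4% in XR PF. The sides did not overlap, and in both the XR libraries were the more concentrated. The mean was 19.5 ± 1.61% in GPiPSC (SD, n = 5) and 28.3 ± 2.35% in PF (SD, n = 4), a difference of -8.54 percentage points adjusted for LB and XR (-8.13 within LB and -9.03 within XR; exact permutation test within LB and XR, two-sided, p = 0.0167). That p is the smallest that the 60 arrangements of these libraries can give, and it also came out for the 4 other library values below, so the 5 values have an adjusted p of 0.0167 each. The most abundant model alone held 0.501% to 0.700% of counts in GPiPSC and 1.37% to 3.82% in PF.

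The same was seen across the whole range of levels. The number of models that together hold a given share of counts, starting from the most abundant, reached 50% at 958, 882 and 960 models in LB GPiPSC and 823 and 809 in XR GPiPSC, against 603 and 534 in LB PF, with 512 and 381 in XR PF. The effective number of models (the exponential of the Shannon entropy, which equals the number of models when all are equally abundant) averaged 4323 ± 246 in GPiPSC (SD, n = 5) and 2815 ± 417 in PF (SD, n = 4), a difference of 1459 (1371 within LB and 1564 within XR; exact permutation test, p = 0.0167). Neither of the values on concentration held on the TPM scale, which divides by effective length and so weighs short models more: the 100 most abundant models held 33.9% to 37.98% of TPM in GPiPSC and 31.1% to 41.1% in PF, a difference of 0.17 percentage points (exact permutation test, p = 0.917). The effective number of models in TPM was 1649 to 2048 in GPiPSC and 1387 to 2377 in PF, a difference of 2.37 (p = 0.95, exact permutation test). In both cases the PF libraries reached lower and higher than all GPiPSC libraries, so evenness differed in reads but was not shown to differ in transcripts.

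**Figure D3:**
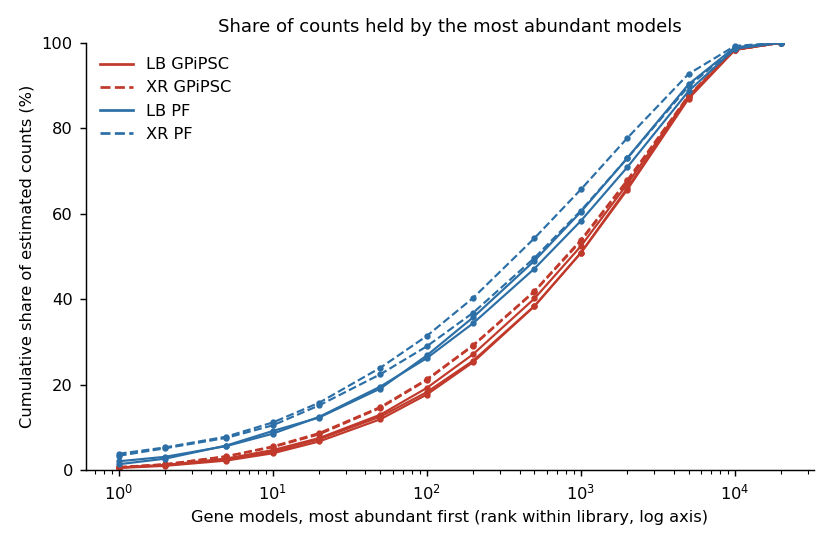
Cumulative share of a library's estimated counts (%) held by its most abundant models, against the rank of the model within the library (log axis). Red lines are GPiPSC and blue lines PF, solid for LB and dashed for XR. At rank 100 the GPiPSC libraries lie between 17.7% and 21.3% and the PF libraries between 26.2% and 31.4%, and the lines meet as all models are included.

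More models were detected in GPiPSC. At 1 TPM or more stood 13781, 13837 and 13994 models in LB GPiPSC and 14055 and 14051 in XR GPiPSC, against 13747 and 12890 in LB PF, with 13617 and 12560 in XR PF. LB PF replicate 1 came close to the lowest GPiPSC library, so the sides are only just apart. The adjusted difference was 739.6 models (552 within LB and 964.5 within XR; exact permutation test, p = 0.0167). With every library thinned to 8627969 counts and TPM recomputed, a setting added after seeing the data, the difference at 1 TPM was 741 models (p = 0.0167, exact permutation test). The call rests on single libraries: p was 0.1 without either XR GPiPSC library, where 0.0333 could be reached, and 0.0833 without LB PF replicate 2, where 0.0417 could be reached (exact permutation tests), with differences of 698.7, 700.1 and 604.1 models.

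The models that held the counts were shorter in GPiPSC. The mean coding length weighted by counts was 1895 to 1983 bases in GPiPSC and 2018 to 2462 bases in PF, with means of 1928 ± 34.7 (SD, n = 5) and 2225 ± 207 (SD, n = 4) and an adjusted difference of -297 bases (-272 within LB and -327 within XR; exact permutation test, p = 0.0167). Weighted by TPM, the lengths were 735 to 788 bases in GPiPSC and 767 to 936 bases in PF, which overlap (difference -65.1 bases, exact permutation test, p = 0.05). Without XR GPiPSC replicate 1 or 2 the p for the counts was 0.0667 or 0.1 (exact permutation tests), with differences of -295.6 and -288.4 bases. The 2 long models named as lower, of 4329 and 4356 bases, are among those that held many counts in PF. By length class, the calls leaned the other way: models over 4000 bases were called higher in 32.9% and lower in 26.2% of 760 cases, and models over 500 and up to 1000 bases in 25.3% and 29.2% of 4302 cases. With offsets for each library's effective lengths these shares were 32.4% and 27.5%, and 25.8% and 28.9%.

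Among the most abundant models, more were called lower than higher. Of the 100 models with the largest share of counts over both sides, taken with equal weight, 15 were called higher, 38 lower and 47 were not called, where 28.3% of all models tested were called in each direction. Their median log2 fold change was -0.45, while that of all models tested was 0.01. They held 15.1% to 18.7% of counts in GPiPSC and 23.7% to 28.9% in PF. The list was ranked by the sum of the mean shares of both sides. Counts were more concentrated in PF, so this ranking favours models high in PF and with them lower calls. Across all models, sorted by mean level into 5 groups of like size, the share called higher was 34.6% in the lowest group and 26.1% in the highest, and the share called lower was 21.6% in the lowest and 34.3% in the highest. The lowest group had a median log2 fold change of 0.53 and the highest of -0.13. The filter for enough counts can be passed through a single sample group, which favours large changes among models of low mean level. The lowest level group is thus not on equal terms with the others. Changes of over 8-fold upwards were most frequent in the lowest group (22.8% of its models) and least in the highest (2.06%), while over 8-fold falls were found in 12.8% of the lowest, 6.31% of the next to highest and 10.6% of the highest group.

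The leading models overlapped in part: 50 models were shared by the 100 most abundant in GPiPSC and the 100 most abundant in PF. The 100 leading in GPiPSC held 17.4% to 21.1% of counts in GPiPSC and 13.0% to 16.6% in PF, and the 100 leading in PF held 11% to 14.1% in GPiPSC and 25.2% to 30.4% in PF. Of the set leading in GPiPSC 33 were called higher and 13 lower, and of the set leading in PF 2 were called higher and 63 lower. Set beside the 28.3% of all models tested that were called in each direction, the 33 are close to that share. These sets were picked by their level on 1 side, which favours a call in that direction.

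Called models nearly always had the same direction in LB and XR. Of the 4519 models called higher, the fitted log2 fold change was above 0 in both for 4515 and of opposite sign for 1, and of the 4525 called lower it was below 0 in both for 4508 and of opposite sign for 12. The remaining models had a change of 0 in LB or XR. LB and XR both passed 2-fold in 3160 of the models called higher and 3194 of those called lower, and only 1 of them did in 1015 and 1070. The median size of the difference between the LB and XR log2 fold changes was 0.75 among the called models. A pooled call favours models that move alike in LB and XR, so these counts describe the calls and are no test of likeness.

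A direct test of the difference between the LB and XR changes called 83 models (0.519% of those tested; edgeR quasi-likelihood test of the interaction), with the log2 fold change higher in LB for 40 and lower in LB for 43, and 2475 models had an unadjusted p under 0.05. Of the 83, 50 were also called in the pooled comparison. That is close to the 56.5% of all models tested that were called there, so the overlap does not set the 83 apart. Opposite signs in LB and XR were seen in 34 of the 83, which a test of the difference favours. The count of 83 is unstable. Leaving out 1 library gave 11 calls without XR PF replicate 2, 13 without either XR GPiPSC library, 22 and 24 without LB GPiPSC replicates 2 and 1, 194 without LB GPiPSC replicate 3, 886 without XR PF replicate 1 and 1099 without LB PF replicate 1. Only without LB PF replicate 2, at 109, was the count within 1.5 times the full one. With the spread estimated over all 25 libraries of the series the count was 1489.

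Repeating the pooled comparison without LB GPiPSC replicate 3, on the same 15996 models, gave 8307 calls (51.9%), 4167 higher and 4140 lower. Of these, 4124 and 4107 were the same models called in the same direction with all 9 libraries, which is 91.0% of the calls with all libraries and 99.1% of the calls without replicate 3. No called model changed its sign. Lost were 395 models called higher and 418 called lower, whose median size of change was 0.90 on the log2 scale, less than a typical call, and 76 models were gained.

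In the order of the tested models, called ones lay next to others called in the same direction more often than models in general. Models that were not tested were passed over, so neighbours in this order need not be adjacent on the scaffold. Along the 21 HIC_ASM scaffolds, in the order of their model numbers, a model called higher was followed by another called higher in 1835 of 4466 cases (41.1%), and by one called lower in 896 (20.1%). Of all models with a tested predecessor, 28.2% were called higher and 28.5% lower. A model called lower was followed by another called lower in 1890 of 4503 cases (42.0%) and by one called higher in 879 (19.5%). Neighbours that are copies of each other may share reads. Among neighbours whose coding lengths differed by over 10%, the shares were 40.8% and 42.3%. These are descriptions, since neighbouring models are not independent, and no cause was tested.

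Runs of 8 or more consecutive tested models called in 1 direction were found 14 times upwards and 11 times downwards. The longest had 15 models called lower on HIC_ASM_15, of which 9 had 0 counts in all GPiPSC libraries. With these at their bound, 13 of the 15 were over 8-fold lower. Their summed level was 56.9, 31.3 and 59.0 CPM in LB GPiPSC and 46.9 and 56.3 CPM in XR GPiPSC, against 843 and 601 CPM in LB PF and 1156 and 2046 CPM in XR PF. The longest run upwards had 14 models on HIC_ASM_14 with a median log2 fold change of 1.96, which summed to 76.9, 79.0 and 80.0 CPM in LB GPiPSC and 109 and 94.3 CPM in XR GPiPSC, against 19.6 and 33.6 CPM in LB PF and 18.9 and 9.44 CPM in XR PF. In both runs all GPiPSC libraries lay on 1 side of all PF libraries. A run of 9 models on HIC_ASM_4 was close to silent in fibroblasts, with 9 counts over all its models and all 4 PF libraries. The models summed to 18.4, 29.5 and 24.8 CPM in LB GPiPSC and 26.6 and 25.5 CPM in XR GPiPSC, against 0.358 and 0.273 CPM in LB PF and 0.170 and 0.0974 CPM in XR PF. Of the 9, 5 had 0 counts in all PF libraries and were at least 8.96-fold higher against 3 counts over the side. A run of 10 models on HIC_ASM_13, 8 of them over 8-fold higher, was the most abundant of the 3 named as rising, at 849 to 1686 CPM in GPiPSC and 25.4 to 122 CPM in PF. Its models all measure between 675 and 1272 bases, and whether they are copies that share reads was not tested. All runs were picked by their calls and carry no test, and those described were chosen with their values known.

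The scaffolds differed in the direction of their calls. On HIC_ASM_6, 36.9% of 815 models were called higher and 21.0% lower, on HIC_ASM_9 35.8% and 21.4% of 603, and on HIC_ASM_19 35.3% and 23.4% of 184, against 28.3% in each direction over all models. HIC_ASM_3 leaned the other way, with 22.9% called higher and 31.4% lower of 1326, and so did HIC_ASM_17, with 27.2% and 35.0% of 357. For each library, the median deviation of a scaffold's models from their own mid-level between the GPiPSC and PF means was taken. On HIC_ASM_6 it was 0.09, 0.17 and 0.21 in LB GPiPSC and 0.24 and 0.20 in XR GPiPSC, against -0.09 and -0.03 in LB PF, with -0.18 and -0.42 in XR PF (log2 CPM). On HIC_ASM_9 it was 0.15, 0.17 and 0.17 in LB GPiPSC and 0.28 and 0.26 in XR GPiPSC, against -0.13 and -0.14 in LB PF, with -0.15 and -0.47 in XR PF. The GPiPSC libraries lay above all PF libraries on HIC_ASM_6, 9, 14 and 19, and on none of the 21 did they all lie below. XR PF replicate 2 was the lowest of the 9 libraries on HIC_ASM_6, 9 and 19. It was also the lowest on many others, among them HIC_ASM_0 (-0.327), HIC_ASM_1 (-0.285), HIC_ASM_2 (-0.361) and HIC_ASM_4 (-0.357), and for the ORI models (-0.734). On HIC_ASM_3 (0.223), HIC_ASM_16 (0.262) and HIC_ASM_17 (0.191), among others, it was the highest. How far the leans of the scaffolds rest on this library was not tested. Among models above the median level, of which 25.1% were called higher and 31.3% lower in all, the lean was kept on some scaffolds only. At these levels 34.5% were called higher and 26.7% lower on HIC_ASM_6, 30.7% and 26% on HIC_ASM_9, and 31.3% and 29.0% on HIC_ASM_1. HIC_ASM_19 had 30.3% called higher and 31.5% lower. HIC_ASM_14 turned round, with 23.6% called higher and 34.4% lower at these levels, against 33.7% and 28.0% over all levels. HIC_ASM_3 had 19.2% and 34.1%.

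**Figure D4:**
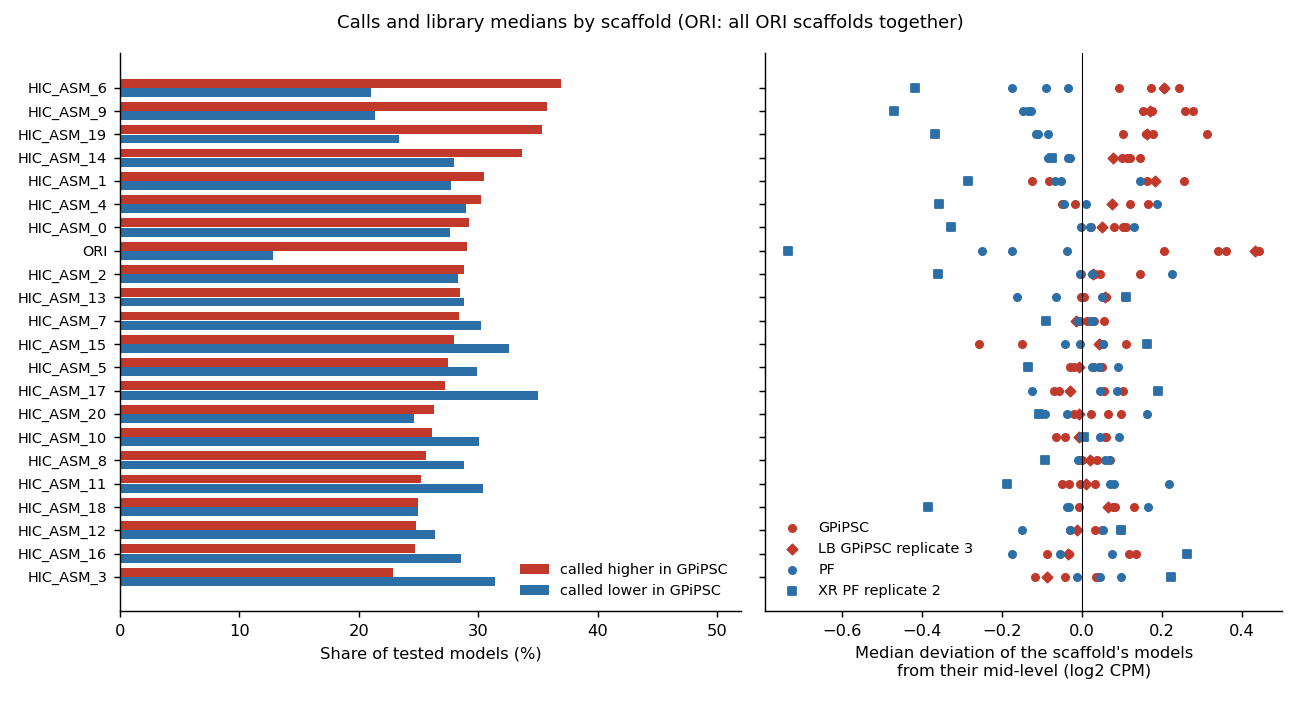
Left, share of each scaffold's tested models (%) called higher (red) or lower (blue) in GPiPSC, scaffolds ordered by the share called higher. Right, for each library, the median deviation of the scaffold's models from their mid-level between the sides (log2 CPM), GPiPSC in red and PF in blue, with LB GPiPSC replicate 3 as a diamond and XR PF replicate 2 as a square. The sides are apart on HIC_ASM_6, HIC_ASM_9, HIC_ASM_19 and HIC_ASM_14 and for the ORI models, where GPiPSC lie to the right.

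Models on the ORI scaffolds, outside the HIC_ASM scaffolds, held more of the counts in GPiPSC. They held 0.783%, 0.792% and 0.743% of counts in LB GPiPSC and 0.685% and 0.669% in XR GPiPSC, against 0.424% and 0.485% in LB PF, with 0.343% and 0.297% in XR PF. The groups did not overlap, and LB libraries were higher than XR libraries on each side. The adjusted difference was 0.336 percentage points (0.318 within LB and 0.357 within XR; exact permutation test, p = 0.0167), and in TPM it was 2.67 (p = 0.0167, exact permutation test). A pair of models held 60.7% to 69.9% of these counts in GPiPSC and 49.8% to 62.3% in PF. Of the 148 ORI models tested, 43 were called higher (29.1%) and 19 lower (12.8%), against 28.3% in each direction over all models. The share called higher is thus near that of all models, and the share called lower is below it. ORI models were mostly of low level, and in the lowest level group of all models 21.6% were called lower. Above the median level lay 19 ORI models, of which 36.8% were called higher and 26.3% lower, against 25.1% and 31.3% of all models there. A further pair of ORI models, of 384 bases each, had identical levels and fold changes. Copies that share reads may thus be counted as separate models.

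The pooled calls were then followed in the other 16 libraries, which took no part in choosing them. The models called higher held 9.60% to 10.7% of all counts in PF, 8.29% and 8.85% at stage I day 8, 17.5% and 20.1% at stage I day 24, 26.3% and 24.9% at stage II day 8 and 37.1% to 39.3% in established GPiPSC. The models called lower held 54.2% to 58.2% in PF, 59.7% and 59.9% at stage I day 8, 34.7% and 38.9% at stage I day 24, 26.3% and 26.4% at stage II day 8 and 15.6% to 16.6% in GPiPSC. At day 8 of stage I neither list had moved from the PF range towards GPiPSC. At day 16, the models called higher held 15.6% and 12.5% of counts in the A83-01 libraries, against 10.1% and 9.89% in the control libraries, and the models called lower held 49.1% and 52.4% against 58.7% and 59.2%. Of the BACL libraries, a label that is not explained, BACL LB GPiPSC and BACL control lay at or near the range of established GPiPSC in both lists, while BACL-CHIR99021 lay between it and stage II day 8. The models called higher held 37.2% and 37.1% of counts in BACL LB GPiPSC, 32.8% and 32.6% in BACL-CHIR99021 and 36.5% and 36.7% in BACL control, and those called lower held 15.2% in both BACL LB GPiPSC libraries, 22.5% and 22.4% in BACL-CHIR99021 and 14.7% and 14.8% in BACL control. These shares are descriptions without a test.

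Of the 138 models that were at 10 TPM or more in all GPiPSC and under 1 TPM in all PF libraries, 24 and 32 were at 1 TPM or more at stage I day 8, 107 and 128 at stage I day 24 and 130 and 121 at stage II day 8. At 10 TPM or more were 2 and 5, then 20 and 42, then 55 and 44 of them. Most of this group was thus detected by day 24 of stage I, but at lower levels than in the established cells. In BACL LB GPiPSC 108 of them were at 10 TPM or more in each library. Of the 158 fibroblast models, 126 and 123 were still at 1 TPM or more at stage II day 8, 8 and 6 in BACL LB GPiPSC, and 49 and 48 in BACL-CHIR99021 against 10 in each BACL control library.

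The 4 named models differed in when they reached the GPiPSC level (CPM scaled over all 25 libraries). The model evm.model.HIC_ASM_6.151 was at 12.6 and 8.20 CPM at stage I day 8, 71.8 and 117 CPM at day 24 and 243 and 208 CPM at stage II day 8, within the 202 to 426 CPM of established GPiPSC. The model evm.model.HIC_ASM_8.1452 was still at 2.59 CPM or less at stage I day 8 and reached 119 and 86.0 CPM at stage II day 8, below the 300 to 370 CPM of GPiPSC. Of the models that fell, evm.model.HIC_ASM_13.784 was at 64018.9 and 56444.5 CPM at stage I day 8. It was at 16026 and 15896 CPM at day 24 and at 15626 and 20076 CPM at stage II day 8. The LB PF libraries were at 20741 and 5849 CPM and the XR PF libraries at 38528 and 52768 CPM. The stage libraries carry no LB or XR prefix, so a fall from the matching PF level cannot be told. The model evm.model.HIC_ASM_1.498 was at 6105 and 8217 CPM at stage I day 24, above the 5691 CPM of the highest PF library. At stage II day 8 it was at 457 and 428 CPM, below the 3042 CPM of the lowest PF library. In BACL-CHIR99021 the 2 models that fell stood at 11.4 and 9.90 CPM and at 28.2 and 26.2 CPM, against at most 0.373 CPM of either in BACL control.

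**Figure D5:**
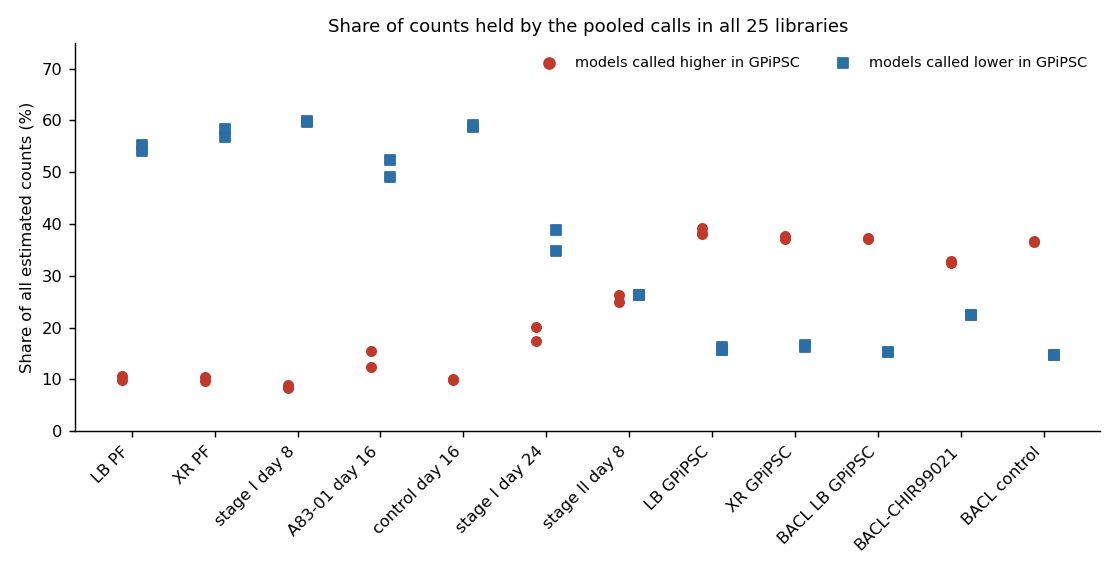
Share of all estimated counts (%) held by the models called higher in GPiPSC (red circles) and by those called lower (blue squares), 1 point per library in each of the 12 groups of the series. The lists were chosen on the PF and the LB and XR GPiPSC libraries. In the others, the share of models called higher runs between 8.29% at stage I day 8 and 37.2% in BACL LB GPiPSC.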

How the data were processed

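RNA libraries were prepared with an NEBNext Ultra kit, as the labels' protocols state. Reads were quantified with kallisto, a pseudoaligner, per the submitters' processing notes; version, index and build: not given in the sources used here. The deposited tables hold for each gene model an estimated count, a TPM value and a length with its effective length, per the file headers. Estimated counts as deposited by the authors were rounded before testing, and the authors' TPM values entered alternatives and detection counts. Lengths are called coding lengths because 91.6% divide by 3. No model identifier was found in the RefSeq gene table at hand (ASM200744v3).

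The 9 libraries entered 1 edgeR 4.0.16 fit (R 4.3.3) with LB or XR and cell state as terms and 6 residual degrees of freedom, after filterByExpr and TMM, with robust quasi-likelihood F tests and Benjamini-Hochberg adjustment over all models tested. The SE is the fold change over the root of F. Values per library were tested by an exact permutation of GPiPSC and PF within LB and XR. A floor of 3 counts was 0.203 to 0.409 CPM per library and covers counting error only. The named models are the 2 per direction with the largest smaller change of LB and XR, among called models with at least 10 CPM in every library of the higher side, at least 10 counts on the lower side and no overlap (2148 models qualified upwards and 2363 downwards). The comparison, the lists and this rule were chosen with earlier results of these data known. Alternatives were RLE, DESeq2 1.42.0, limma 3.58.1 on TPM and on log2 CPM, no filter, effective-length offsets, all 25 libraries, a replicate block, no LB and XR block, glmTreat and each library left out. The edgeR step was tested on simulated data.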

Additional observations from a re-analysis of the deposited data

Results flagged for a closer look

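The change from fibroblasts to GPiPSC differed between LB and XR in 83 models by the interaction test of edgeR (adjusted p under 0.05); the counts without single libraries are given above.

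Of 32 sets of values over the 5 GPiPSC or the 4 PF libraries, 1 had a library far from the others by its gap relative to the range, where chance gives about 1 in 20. The model evm.model.HIC_ASM_13.784 stood at 1.07 CPM in LB GPiPSC replicate 1 (15 counts), against 0.0698 to 0.347 CPM in the other 4 GPiPSC libraries.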

How the results depend on the processing

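The pooled count of 9044 calls stayed within 1.5 times under every alternative but the test against a 2-fold change (glmTreat), which called 5457. It was 7926 to 9350 when 1 library was left out, 7532 with a replicate block, 11523 with all 25 libraries in the fit and 8634 without both LB GPiPSC replicate 3 and XR PF replicate 2, a setting added after seeing the data. Without LB GPiPSC replicate 3 the 8307 calls became 8328 with RLE and 7524 with a replicate block. The LB and XR difference of 83 calls was 11 to 1099 when 1 library was left out, 682 with DESeq2, 174 with no filter, 165 with limma-trend on log2(TPM + 1), 158 on TMM log2 CPM, 1489 with all 25 libraries and 1266 with the replicate block. It was 0 by edgeR without both LB GPiPSC replicate 3 and XR PF replicate 2, with 2157 models at an unadjusted p under 0.05. The cause was not tested. No label says that replicate numbers pair the samples. Deviations of same-numbered GPiPSC and PF libraries correlated at 0.076 and 0.026 in LB and at 0.29 in XR, where 2 libraries a group mirror each other and give 1 value, so a pairing was not shown in LB and is unresolved in XR. With limma-trend 63% of calls were higher on log2(TPM + 1) and 63.2% of 9297 on log2(TPM + 0.1), against 49.97% by edgeR.

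The difference in the share of the 100 most abundant models was -8.88 to -8.02 percentage points when 1 library was left out and reversed to 0.168 on TPM. The effective number of models differed by 1349 to 1534, and by 2.37 on TPM. The number of models at 1 TPM differed by 511 to 971, the share on ORI scaffolds by 0.324 to 0.354 and the count-weighted length by -371 to -213 bases, or -65.1 weighted by TPM. Without 1 LB GPiPSC library the exact test cannot go below 0.0556. The calls on models at 1 TPM and on count-weighted length were also lost without either XR GPiPSC library (p of 0.0667 to 0.1, where 0.0333 could be reached), and that on models at 1 TPM without LB PF replicate 2 (0.0833). The 4 named models kept direction and call in all 20 alternatives each, with log2 fold changes of 7.55 to 10.49, 4.56 to 8.48, -17.05 to -11.10 and -13.23 to -8.87. Depth limits the folds of models near 0 counts.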
